A study of Mus musculus with 18 samples.

Results

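The genes described are 7 members of the CXC chemokine system that steer neutrophils and related leukocytes: the ligands Cxcl1, Cxcl2, Cxcl3 and Cxcl5, their receptor Cxcr2, and the retention ligand Cxcl12 with its receptor Cxcr4. They were taken as a named list, matched by Ensembl identifier, from a table of 30583 genes, and all 7 were among the 16311 genes that passed the filter on low counts. Poly(A) RNA was sequenced from left ventricular myocardium of 18 male C57BL/6JR mice aged 12 weeks, with 3 mice and 1 library per mouse in each of 6 groups. In 5 groups an infarct was made by tying the left anterior descending coronary artery under pentobarbital, and the mice were killed under isoflurane at 10 min or at 1, 6, 24 or 72 h. The sham mice, labelled 0 h, had the same operation and anaesthesia with the suture left untied, so that anaesthesia and the opened chest were shared by all groups. Sham mice represent a single time, so later times after a sham operation were not analysed here.

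Chemokines of the CXC family are small secreted proteins. Those with the ELR motif (glutamate, leucine, arginine) ahead of the paired cysteines bind CXCR2 on neutrophils and draw them from blood into tissue, and their genes are classical targets of NF-kB downstream of interleukin 1, TNF and Toll-like receptors. CXCL12 lacks the motif, is made constitutively by stromal and endothelial cells, and acts through CXCR4, which holds neutrophils and progenitors in bone marrow and attracts many other leukocytes. In the infarcted heart neutrophils arrive early and are followed by monocytes and macrophages.

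The libraries held between 18.2 and 25.1 M counts (M for mega). Levels are CPM (counts per M of the library's counts, scaled by TMM), and comparisons between genes use CPM per kb of exon length. The labels name both cardiomyocytes and myocardial tissue; in sham hearts 7 cardiomyocyte markers summed to 57700 to 62300 CPM, 6 endothelial markers to 1250 to 1360 CPM, 6 fibroblast markers to 745 to 805 CPM and 9 monocyte and macrophage markers to 208 to 240 CPM, which makes the samples whole tissue. In such bulk samples, fewer cells of a type and less RNA per cell cannot be told apart. A gene was called at an edgeR quasi-likelihood p under 0.05 after Benjamini-Hochberg adjustment over 16311 genes, and every comparison with sham uses the same 3 sham libraries. TMM scaling sets the middle of all genes near no change; under scaling by library totals the median gene instead differed from sham by -0.12 (log2) at 6 h, by 0.20 at 24 h and by 0.61 at 72 h.

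The 4 ELR ligand genes of the list lie together on mouse chromosome 5 (GENCODE M21, GRCm38), within 147 kb and all on the + strand. Cxcl5 (ENSMUSG00000029371) occupies chr5:90759360-90761624, Cxcl3 (ENSMUSG00000029379) chr5:90786103-90789600, Cxcl1 (ENSMUSG00000029380) chr5:90891241-90893115 and Cxcl2 (ENSMUSG00000058427) chr5:90903871-90905938. Ppbp, Pf4 and Cxcl15, which encode other CXC chemokines, lie inside the same interval. Cxcr2 (ENSMUSG00000026180, chr1:74153989-74161246, + strand), Cxcl12 (ENSMUSG00000061353, chr6:117168535-117181367, + strand) and Cxcr4 (ENSMUSG00000045382, chr1:128588199-128592293, - strand) lie elsewhere. Each value is summed over the exons of its gene.

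Promoters are shown because the ELR ligand genes rose by 6 h and Cxcl12 was not called then. RefSeq windows on GRCm38.p6, running from 250 bases before to 50 bases after the start, were found for 6 of the 7 genes, all but Cxcl5. Both strands were searched for the NF-kB motif, which reads GGG, any 3 bases and then TTCC, and which 5.56% of 32851 windows hold. The 100 bases from 130 to 31 before the start are printed 5′ to 3′ on the + strand, with NF-kB matches in capitals; overlapping matches are joined into 1 run of capitals. The stretches are chr5:90891115-90891214 for Cxcl1, chr5:90903769-90903868 for Cxcl2, chr5:90785971-90786070 for Cxcl3 and chr6:117168405-117168504 for Cxcl12.
Cxcl1: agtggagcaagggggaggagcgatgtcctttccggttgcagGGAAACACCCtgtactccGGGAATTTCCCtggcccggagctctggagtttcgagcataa
Cxcl2: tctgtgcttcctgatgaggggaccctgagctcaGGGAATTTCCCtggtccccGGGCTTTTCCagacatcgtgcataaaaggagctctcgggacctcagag
Cxcl3: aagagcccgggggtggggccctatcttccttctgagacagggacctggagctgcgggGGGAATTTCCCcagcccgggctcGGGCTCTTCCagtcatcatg
Cxcl12: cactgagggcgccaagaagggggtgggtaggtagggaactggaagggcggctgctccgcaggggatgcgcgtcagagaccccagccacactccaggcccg
The same 11 letters, GGGAATTTCCC, stand in all 3 ELR ligand promoters and hold a match on each strand. They begin 71 bases before the start in Cxcl1, 97 in Cxcl2 and 73 in Cxcl3. Cxcl1 has 1 more match, on the - strand 89 bases before the start, and Cxcl2 and Cxcl3 have 1 more on the + strand, at 78 and 50 bases. The windows of Cxcl12, Cxcr2 and Cxcr4 held no match to these letters. Of these genes, Cxcr2 was also called higher at 6 h, and Cxcl5, which rose as well, had no window to search. The AP-1 motif TGANTCA, present in 7.81% of all windows, was in none of the 6. The hypoxia element, ACGTG or GCGTG, was in the windows of Cxcl1, Cxcl2, Cxcl3 and Cxcr4. It was not in those of Cxcl12 and Cxcr2, and 43.8% of all windows hold it. The TATA box TATAAA, in 13.6% of all windows, was in those of Cxcl3 and Cxcr4. A match is a string of letters only. These data do not measure binding, and a link between the motif and the rise was not tested.

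Cxcl1 encodes KC, an ELR chemokine made by endothelial cells, fibroblasts and macrophages, and its transcript was the earliest of the 7 to be called. Its level was 1.16, 1.45 and 1.33 CPM in the sham libraries and 3.86, 2.31 and 2.23 CPM at 10 min. At 1 h it was 19.3, 19.7 and 22.5 CPM, with an SD of 1.74 around a mean of 20.5 CPM. All 3 libraries at 1 h lay above all 6 earlier ones, and the 3 hardly differed from each other.

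At 6 h Cxcl1 reached 93.9, 53.2 and 25.7 CPM. It was 8.29, 9.13 and 39.1 CPM at 24 h and 2.97, 5.72 and 4.33 CPM at 72 h. Every library at 6 h exceeded every library at 1 h, but replicate 3 at 24 h overlapped the 6 h group. Against sham Cxcl1 rose 15.5-fold at 1 h (3.96 on the log2 scale, SE 0.70, edgeR adjusted p = 0.0323), 43.5-fold at 6 h (log2 5.44 ± 0.71 SE, adjusted p = 0.000131) and 14.1-fold at 24 h (3.82 ± 0.70, adjusted p = 0.000808). The 10 min libraries did not overlap sham, yet the fold of 2.09 did not pass (edgeR adjusted p = 0.876; 0.0414 when only these 6 libraries were fitted). Nor did the 3.29-fold difference at 72 h (adjusted p = 0.0525), which DESeq2 called (adjusted p = 0.00566). The 1 h call was the least firm: it was lost in 12 of 18 fits that left out 1 library, among them each of the sham and 1 h libraries, and with no filter on low counts (adjusted p = 0.0652).

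The order of the Cxcl1 group means was 6 h, 1 h, 24 h, 72 h, 10 min and sham. Of the neighbours in that order, only 24 h and 72 h differed by edgeR (adjusted p = 0.00861, or 0.072 without replicate 3 at 24 h), while 6 h against 1 h gave an adjusted p of 0.0632 and 1 h against 24 h one of 0.859. From 6 h to 24 h Cxcl1 fell by 1.63 on the log2 scale (adjusted p = 0.0401), a call lost in 13 of 18 fits with 1 library left out. The 24 h mean of 18.8 CPM was 8.71 CPM without replicate 3.

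Cxcl2 encodes MIP-2, an ELR chemokine made largely by macrophages and neutrophils. It had 5, 3 and 2 counts in the sham libraries and 6, 5 and 3 counts at 10 min, then 79, 94 and 93 counts at 1 h, or 3.82, 5.57 and 5.42 CPM. The 1 h libraries were far above all 6 earlier ones. The fitted rise was 29.2-fold (log2 4.87 ± 1.98), but it was not called in the fit over 18 libraries (edgeR adjusted p = 0.82). That fit uses 1 estimate of spread per gene for all 6 groups. The rise was called by DESeq2 (log2 4.92, adjusted p = 0.00269) and by edgeR fitted to the 6 libraries compared alone (adjusted p = 3.65e-07).

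Later the Cxcl2 libraries spread widely: 65.0, 30.3 and 10.8 CPM at 6 h and 12.0, 2.02 and 140 CPM at 24 h, before 2.05, 2.31 and 1.5 CPM at 72 h. The 24 h mean of 51.5 CPM rested on replicate 3 and was 7.01 CPM without it; the 6 h mean of 35.4 CPM was 20.5 CPM without replicate 1. All libraries at 6 h and 24 h lay above all sham libraries. Cxcl2 rose 210-fold at 6 h (log2 7.71 ± 1.73, edgeR adjusted p = 0.00555) and 304-fold at 24 h (log2 8.25 ± 1.72, adjusted p = 0.00206). At 72 h the 11.7-fold difference did not pass (adjusted p = 0.166), although the 3 libraries did not overlap sham; DESeq2 called it (adjusted p = 0.00251).

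Cxcl3 encodes DCIP-1, a further ELR chemokine, and was not detected at rest. It had 0 counts in all 6 sham and 10 min libraries, and 1, 1 and 0 counts at 1 h. At 6 h it was 50.2, 25.9 and 7.35 CPM, or 843, 541 and 138 counts. It was 23.9, 1.59 and 193 CPM at 24 h and 0.757, 2.04 and 1.27 CPM at 72 h. The 6 h mean of 27.8 CPM was 16.6 CPM without replicate 1, and the 24 h mean of 72.8 CPM was 12.8 CPM without replicate 3. Thus Cxcl3 was near 0 at 1 h, when every library of Cxcl1 and Cxcl2 already lay above sham, and was present in every library from 6 h on. The Cxcl2 difference at 1 h was not called in the edgeR fit over 18 libraries.

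With sham at 0, folds for Cxcl3 are lower bounds against 3 counts per library, a floor that covers counting error only. Cxcl3 was at least 190-fold higher at 6 h (edgeR adjusted p = 0.0302), a bound that was 113-fold without replicate 1 at 6 h, and at least 496-fold higher at 24 h (adjusted p = 0.00916; 0.0791 when only the 6 libraries were fitted), a bound that was 86.8-fold when replicate 3 at 24 h was left out. The bound at 72 h was 9.24-fold, and the difference was not called (adjusted p = 0.249; DESeq2 adjusted p = 0.000219). The 6 h call was lost without any 1 of the sham libraries or without replicate 1 or 2 at 6 h, with adjusted p up to 0.0897. Cxcl3 and Cxcl2 share 126 of the 2159 stretches of 50 bases in Cxcl2 transcripts (5.84%), so a small part of their reads could have been assigned to either; no other pair of the 4 ligands shared any.

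Cxcl5 encodes LIX, an ELR chemokine known from epithelial cells and platelets among other sources. Its counts were 6, 4 and 5 in sham, 3, 3 and 2 at 10 min and 10, 6 and 6 at 1 h, with no call at either time (edgeR adjusted p = 0.973 and 0.999). At 6 h Cxcl5 stood at 122, 68.9 and 62.6 CPM (2047, 1440 and 1176 counts). It was 17.4, 15.7 and 77.3 CPM at 24 h and 8.33, 16.7 and 16.3 CPM at 72 h. No library from 6 h on overlapped any earlier library.

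Cxcl5 had the smallest adjusted p of the 7 genes at 6 h and at 24 h, and kept the highest level per kb of the 4 ligands at 72 h. It rose 339-fold at 6 h (log2 8.40 ± 0.84, edgeR adjusted p = 1.97e-05), 147-fold at 24 h (7.20 ± 0.84, adjusted p = 3.13e-05) and 55.3-fold at 72 h (5.79 ± 0.87, adjusted p = 4.92e-05). From 1 h to 6 h alone the change was 7.70 on the log2 scale (adjusted p = 3.7e-05). The difference between 6 h and 24 h did not pass (log2 -1.21, adjusted p = 0.0871). It was called without replicate 3 at 24 h (-2.35, adjusted p = 9.83e-05) and by limma with either pseudocount (adjusted p = 0.0347 and 0.0353). The 24 h mean of 36.8 CPM was 16.6 CPM without replicate 3.

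Platelets are a known source of CXCL5 protein. Their 5 marker genes summed to 2.1 to 8.32 CPM in every library except replicate 1 at 6 h, where the sum was 22.5 CPM and Cxcl5 was also highest. At 6 h 2 of the 4 tested markers were called higher, Gp9 (log2 3.02, edgeR adjusted p = 0.0169) and Gp1bb (1.84, adjusted p = 0.0297). Gp1bb was also called at 24 h (1.75) and at 72 h (3.16), and the other 3 tested markers were not. Of all genes 16.3% were called higher at 6 h, 23.7% at 24 h and 34.2% at 72 h. None of the 5 markers was at 0 in a group, and their part in the result was not tested.

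**Figure D1:**
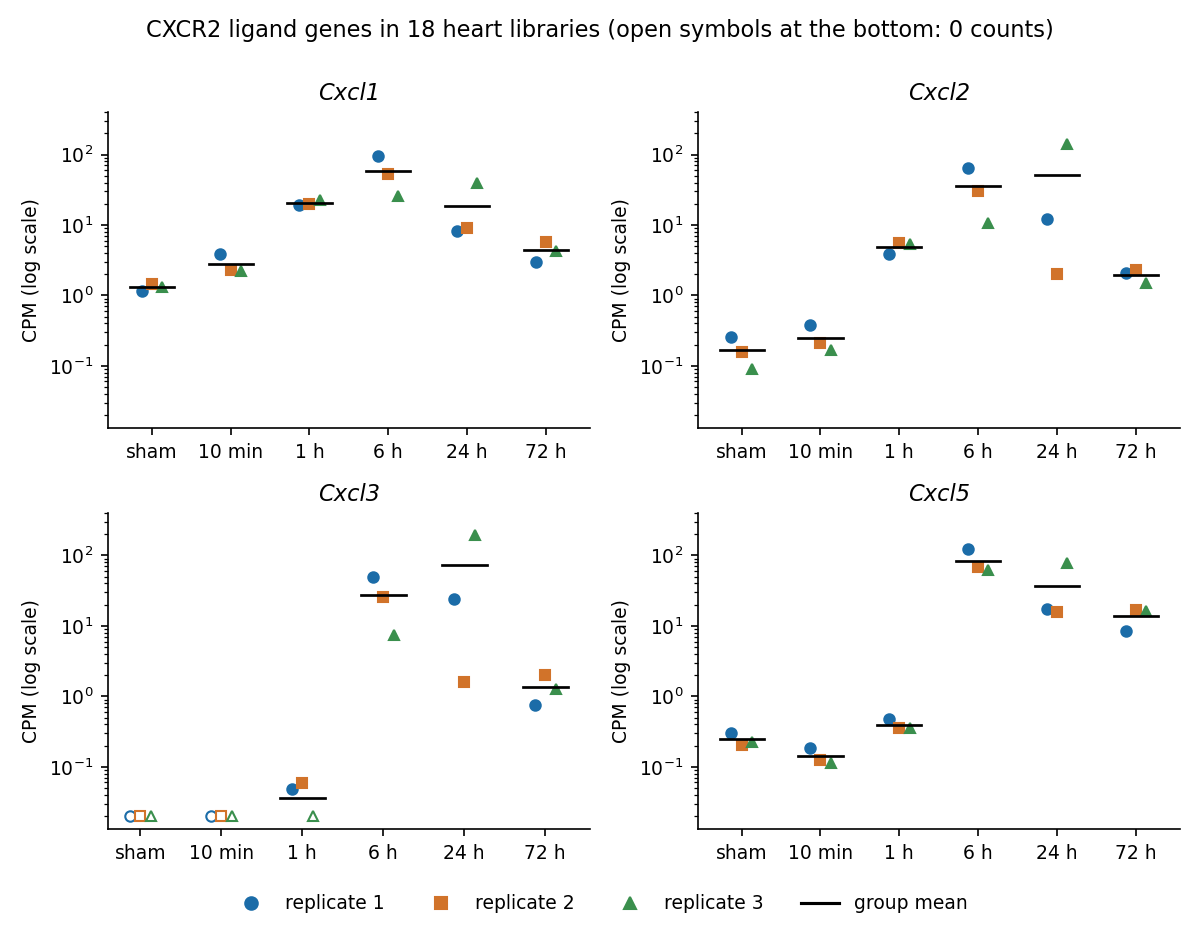
CPM on a log axis of the 4 CXCR2 ligand genes in each of the 18 libraries, with the bar at the group mean (n = 3 mice) and open symbols for 0 counts. The 1 h libraries of Cxcl1 and Cxcl2 stand well above sham, Cxcl3 and Cxcl5 stay below 1 CPM until 6 h, and at 24 h replicate 3 stands above the other 2 libraries for all 4 genes.

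The make-up of the summed level of the 4 listed ELR ligand genes changed over time (per kb, so that genes can be compared). The 4 genes summed to 0.873 to 0.961 CPM per kb in sham and 1.33 to 2.34 at 10 min, and Cxcl1 held 68.5% to 81.4% and 87.9% to 89.4% of these sums. At 1 h the sum was 12.4 to 14.8 CPM per kb and Cxcl1 still held 78.4% to 82.9%, with Cxcl2 at 14.9% to 20.1%. The early sum of these 4 genes was thus mostly Cxcl1 transcript in all 9 libraries. Other CXC ligand genes, such as Ppbp, were not in the sum, so the shares do not describe all CXC ligands. In CPM, without division by length, Ppbp averaged 0.949 in sham, 4.13 at 10 min and 3.12 at 1 h. The Cxcl1 means were 1.32, 2.8 and 20.5 CPM.

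At 6 h the summed level was 161, 87.4 and 54.6 CPM per kb, and Cxcl5 was the largest part with 40.6%, 42.3% and 61.5%. At 24 h the sum was 26.4, 14.7 and 185 CPM per kb. There the 3 libraries differed in make-up. In replicate 1 Cxcl1 held 16.7%, Cxcl2 22.0%, Cxcl3 25.9% and Cxcl5 35.4%. In replicate 2 Cxcl5 held 57.2% and Cxcl3 3.09%, and in replicate 3 Cxcl2 held 36.6%, Cxcl3 29.8% and Cxcl5 22.4%. By 72 h the sum was back to 7.26 to 13.7 CPM per kb and Cxcl5 held 61.6% to 72.0%. These shares are descriptions of each library and were not tested.

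**Figure D2:**
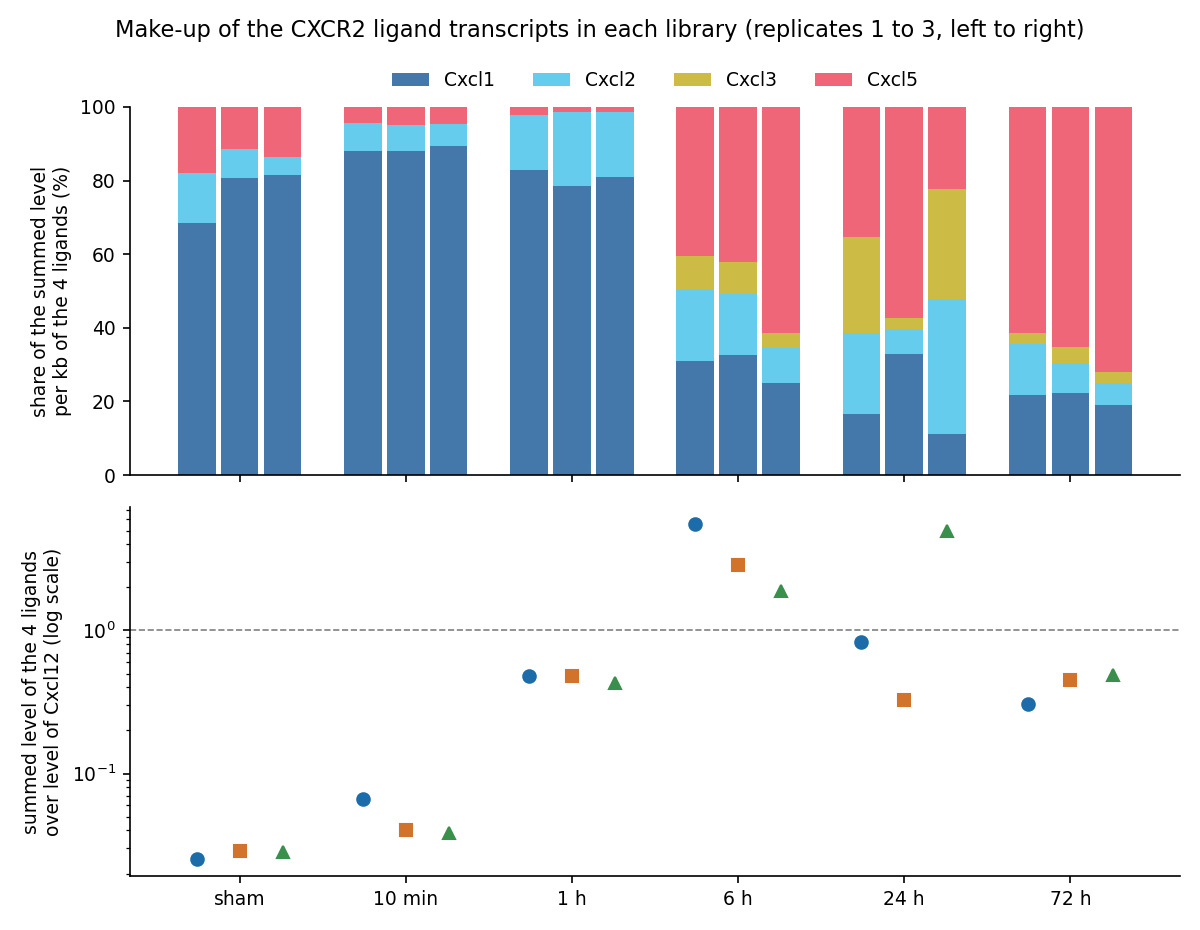
Top, the share of each ligand in the summed CPM per kb of Cxcl1, Cxcl2, Cxcl3 and Cxcl5 in each library (%); bottom, that sum divided by the level of Cxcl12 per kb, on a log axis with a dashed line at 1. Cxcl1 fills 68.5% or more of every bar up to 1 h, and the ratio lies above 1 in the 3 libraries at 6 h and in replicate 3 at 24 h only.

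Cxcr2, the neutrophil receptor for all 4 ligands, was at the edge of detection before 6 h. Its counts were 1, 4 and 6 in sham, 15, 12 and 6 at 10 min and 16, 9 and 10 at 1 h. At 6 h it was 61.6, 12.7 and 7.46 CPM, at 24 h 10.8, 3.22 and 50.9 CPM and at 72 h 2.87, 4.05 and 3.72 CPM. All 9 late libraries lay above all 9 early ones, with a spread of several fold within the 6 h and the 24 h groups.

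Cxcr2 rose 147-fold at 6 h (log2 7.20 ± 1.35, edgeR adjusted p = 0.00179) and 117-fold at 24 h (6.87 ± 1.36, adjusted p = 0.00138). The 6 h mean of 27.2 CPM was 10.1 CPM without replicate 1, and the 24 h mean of 21.7 CPM was 7.0 CPM without replicate 3. At 72 h the rise was 19.3-fold (4.27 ± 1.48, adjusted p = 0.0215), and this call was lost without any 1 of the sham libraries (adjusted p 0.0519 to 0.0674).

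Neutrophil markers moved with Cxcr2 and with the ligands. The 13 markers, among them S100a8, S100a9 and Csf3r, summed to 2.93 to 4.51 CPM in sham, with Ly6g, Mpo and Elane at 0. The sum was 5.53 to 21.7 CPM at 10 min and 15.2 to 24.3 CPM at 1 h. It was 756, 280 and 108 CPM in replicates 1, 2 and 3 at 6 h and 181, 44.2 and 770 CPM at 24 h. Cxcr2, Cxcl2, Cxcl3 and Cxcl5 had the same order of libraries at both times, and Cxcl1 at 6 h only. At 72 h the marker sum was 65.6 to 81.1 CPM. At 6 h 9 of the 9 tested markers were called higher, at 24 h 8 and at 72 h 6. The shares of all genes called higher were 16.3%, 23.7% and 34.2%. The part of neutrophil number in the ligand and Cxcr2 values was not tested.

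Cxcr2 did not keep a fixed ratio to Csf3r, the G-CSF receptor, which neutrophils and some monocytes express. Per kb the ratio of Cxcr2 to Csf3r was 1.65, 1.19 and 0.635 at 6 h, 0.481, 0.325 and 0.601 at 24 h and 0.149, 0.213 and 0.151 at 72 h. The 3 groups did not overlap, and of these 3 times the ratio was lowest at 72 h. Earlier, on few Cxcr2 counts, it was 0.074 to 0.323 in sham, 0.374 to 0.455 at 10 min and 0.201 to 0.367 at 1 h. The 24 h range overlapped those at 10 min and 1 h, and the 72 h range those of sham and 1 h. Only the 6 h values lay above all others. The ratio was not tested.

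Cxcl12, by contrast, was abundant in every library. It was 293, 273 and 252 CPM in sham, 288, 285 and 285 CPM at 10 min, 213, 229 and 281 CPM at 1 h and 238, 250 and 236 CPM at 6 h. It was 259, 367 and 307 CPM at 24 h and 194, 248 and 204 CPM at 72 h. The lowest and the highest library differed by less than a factor of 2, and each 72 h library was below each sham library.

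In the comparisons with sham, Cxcl12 was called only at 72 h, where it fell by 0.34 on the log2 scale (SE 0.13, edgeR adjusted p = 0.0243). That direction depended on the scaling: with library totals the difference was 0.25 (adjusted p = 0.115), and with limma on log2(FPKM + 1) it was 0.23 (adjusted p = 0.138), while the median of all genes moved to 0.61. The call was also lost without sham replicate 1, 72 h replicate 1 or 72 h replicate 3. Against sham the log2 differences at 10 min, 1 h, 6 h and 24 h were 0.07, -0.18, -0.18 and 0.19 with no call; at 24 h library total scaling gave 0.40 (adjusted p = 0.0248), and leaving out replicate 1 at 24 h gave 0.32 (adjusted p = 0.0411). The rise of 0.37 from 6 h to 24 h (adjusted p = 0.0379) was lost without any 1 of the 6 h libraries or without replicate 2 or 3 at 24 h. Between 24 h and 72 h Cxcl12 fell by 0.53 (adjusted p = 0.00184), or by 0.15 with library totals (adjusted p = 0.372).

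The balance of ELR ligands to Cxcl12 changed more than Cxcl12 did. Per kb, the 4 listed ELR ligands summed to 0.0253 to 0.0288 of Cxcl12 in sham, 0.0382 to 0.0665 at 10 min and 0.431 to 0.479 at 1 h. The ratio was 5.54, 2.86 and 1.89 at 6 h, 0.833, 0.328 and 4.93 at 24 h and 0.305 to 0.487 at 72 h. Cxcl12 was therefore the most abundant of the 5 ligand genes as a transcript in all sham, 10 min and 1 h libraries, and the other 4 together exceeded it in all 3 libraries at 6 h. A ratio within a library does not depend on its scaling.

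Cxcr4, the CXCL12 receptor, was the 1 member whose highest levels came at 72 h. It was 9.35, 5.96 and 7.91 CPM in sham, 7.78, 9.45 and 10.1 CPM at 10 min, 5.51, 7.28 and 7.81 CPM at 1 h and 13.8, 7.42 and 7.62 CPM at 6 h. It was 14.6, 12.8 and 33.6 CPM at 24 h and 41.0, 43.0 and 48.3 CPM at 72 h. The 4 early groups overlapped, and the 72 h libraries were above all others and close together.

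Cxcr4 rose 2.61-fold at 24 h (log2 1.38 ± 0.33, edgeR adjusted p = 0.00339) and 5.69-fold at 72 h (2.51 ± 0.33, adjusted p = 7.3e-06). The rise from 24 h to 72 h was also called (log2 1.12, adjusted p = 0.0067). The rise from 6 h to 24 h (1.08, adjusted p = 0.0218) was lost without replicate 3 at 24 h (0.52, adjusted p = 0.103), and also when 6 h replicate 2 or 6 h replicate 3 was left out. In the 6 h group the difference from sham of 0.30 was not called (adjusted p = 0.536) and was -0.04 without replicate 1 at 6 h.

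The 9 monocyte and macrophage markers, with Cd68, Ccr2 and Adgre1, were also at their highest sum at 72 h. They summed to 195 to 300 CPM over all sham, 10 min, 1 h and 6 h libraries, 540 to 682 CPM at 24 h and 2910 to 3700 CPM at 72 h, with none at 0 in any group. Lyz2 alone was 2370 of the mean sum of 3250 CPM at 72 h. Against sham 5 of the 9 were called higher and 2 lower at 6 h (Cx3cr1 by -2.46 and Adgre1 by -0.47 on the log2 scale), 8 higher at 24 h and all 9 higher at 72 h. Over all genes 16.3%, 23.7% and 34.2% were called higher at these times. Lymphocyte markers, whose cells also carry CXCR4, summed to 1.95 to 2.23 CPM in sham and 4.51 to 5.60 CPM at 72 h. Fibroblast markers were 598 to 936 CPM up to 24 h and 6530 to 8720 CPM at 72 h. Of the 72 h mean sum of 7420 CPM, Col1a1 made up 3550 CPM and Col1a2 2970 CPM. Pdgfra went from 40.1 CPM in sham to 79.3 CPM at 72 h, and Dcn from 412 to 514 CPM. Cardiomyocyte markers were 15800 to 20400 CPM at 72 h. Endothelial markers were 755 to 978 CPM at 72 h, and the 6 markers of pericytes and smooth muscle, other sources of CXCL12, summed to 1040 to 1110 CPM in sham, 596 to 702 CPM at 24 h and 755 to 913 CPM at 72 h. At 72 h 4 of these 6 were called lower (Rgs5 -1.05, Kcnj8 -1.65, Cspg4 -0.53 and Myh11 -1.65, log2) and 1 higher (Acta2, 1.40). There 66.4% of all genes were called, 32.2% lower and 34.2% higher. At 24 h 3 of the 6 markers were called lower and 0 higher, where 43.8% of all genes were called in either direction and 23.7% were called higher. The part of any of these cells in the Cxcr4 and Cxcl12 values was not tested.

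**Figure D3:**
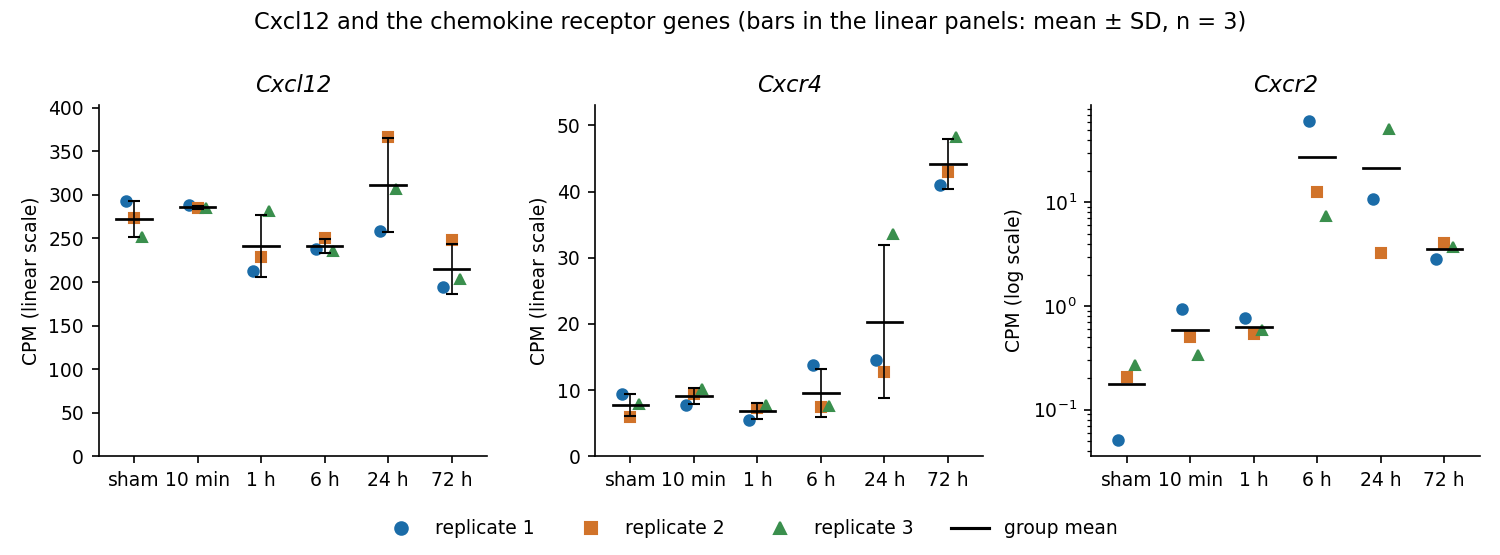
CPM of Cxcl12 and Cxcr4 on linear axes (bar and whiskers: mean ± SD, n = 3 mice) and of Cxcr2 on a log axis (bar: mean), 1 symbol per library. Cxcl12 stays between 194 and 367 CPM, Cxcr4 is above 40 CPM in the 72 h libraries only, and Cxcr2 is above 2 CPM in every library from 6 h on and below 1 CPM before.

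**Figure D4:**
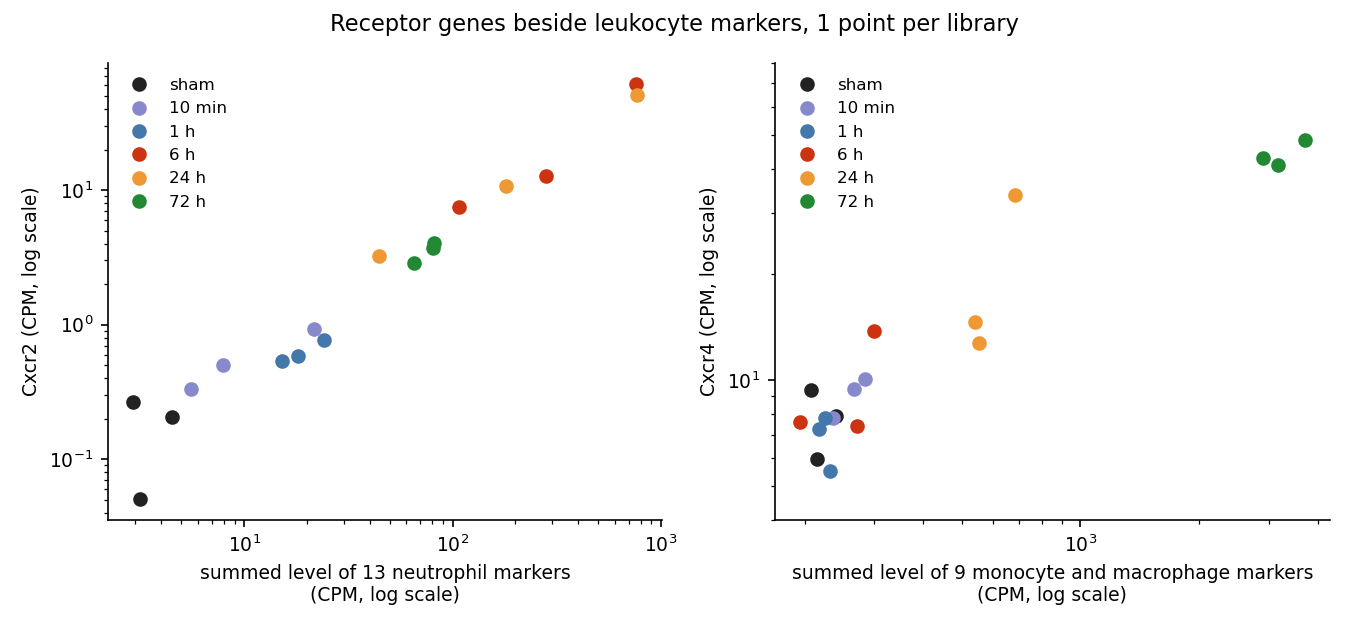
Left, Cxcr2 against the summed level of 13 neutrophil markers; right, Cxcr4 against the summed level of 9 monocyte and macrophage markers, in CPM on log axes, 1 point per library coloured by group. Replicate 1 at 6 h and replicate 3 at 24 h stand together at the upper end on the left, and the 3 libraries at 72 h form the upper end on the right.

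Counted over the 7 genes, 0 were called at 10 min, when 0.0736% of all tested genes were called. With edgeR 0 of the 7 also had an unadjusted p under 0.05 there, and DESeq2 and limma called 0. At 1 h 1 gene, Cxcl1, was called, against 0.294% of all genes, and 2 (Cxcl1 and Cxcl2) had an unadjusted p under 0.05. At 6 h 5 were called, all higher (the 4 ELR ligands and Cxcr2), where 28.4% of all genes were called and 16.3% were called higher. At 24 h 6 were called, all higher (all but Cxcl12), where 43.8% of genes were called and 23.7% higher. At 72 h 4 were called, with Cxcl5, Cxcr2 and Cxcr4 higher and Cxcl12 lower, where 66.4% of genes were called, 34.2% higher and 32.2% lower; that share of the members is near the background. The test for any difference among the 6 groups called all 7, and 78.4% of all genes.

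Between consecutive times, 0 of the 7 were called from 10 min to 1 h by edgeR, against 0.307% of all genes, with 2 at an unadjusted p under 0.05; DESeq2 called 2 and limma 1. From 1 h to 6 h 3 were called, all higher (Cxcl3, Cxcl5 and Cxcr2), against 24.5% of all genes called and 14.5% called higher. The Cxcl3 call (adjusted p = 0.0397) was lost in 8 of 18 fits with 1 library left out: each of the 1 h and the 72 h libraries and replicates 1 and 2 at 6 h. From 6 h to 24 h 3 were called, against 27.8%: Cxcl1 lower, Cxcl12 and Cxcr4 higher. Over the same step Cxcl2 changed by 0.54 and Cxcl3 by 1.38 on the log2 scale with no call. Without replicate 3 at 24 h the changes were -2.35 for Cxcl2 (adjusted p = 0.0331) and -1.14 for Cxcl3.

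From 24 h to 72 h all 7 were called, against 50.5% of all genes: Cxcr4 rose and the other 6 fell, where 26.1% of all genes fell. The falls on the log2 scale were Cxcl1 -2.10, Cxcl2 -4.70, Cxcl3 -5.73, Cxcl5 -1.41, Cxcr2 -2.59 and Cxcl12 -0.53. Of these calls only those of Cxcl12 and Cxcr4 held without replicate 3 at 24 h, when Cxcl1 gave -1.01 and Cxcl2 -1.82 with adjusted p of 0.072 and 0.0588. The calls of Cxcl3, Cxcl5 and Cxcr2 were also lost without replicate 1 or replicate 3 at 72 h. The 6 h libraries give a comparison that does not rest on the 24 h group: for the 4 ELR ligands and Cxcr2, every library at 72 h lay below every library at 6 h. How many of all genes showed such a separation was not counted. By edgeR 6 of the 7 were called between these times, against 63% of all genes. Cxcr4 rose by 2.20 on the log2 scale (adjusted p = 2.69e-05). The falls were Cxcl1 -3.73 (adjusted p = 0.000105), Cxcl2 -4.17 (0.00763), Cxcl3 -4.34 (0.0362), Cxcl5 -2.62 (0.000599) and Cxcr2 -2.93 (0.0116). The 24 h libraries enter the shared spread of these fits.

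Genes of the wider pathway were read from lists of related genes. Of 14 tested genes that induce or restrain ELR chemokine transcription, 2 were called at 1 h, both higher: Nfkbiz, an NF-kB cofactor (log2 2.44 ± 0.40, edgeR adjusted p = 0.0107), and Zfp36, which destabilises cytokine mRNA (3.52 ± 0.36, adjusted p = 0.000219). These 2 are named because they made up the count, after their values were seen. At 6 h 11 were called, at 24 h 12 and at 72 h 11, all higher, where 16.3%, 23.7% and 34.2% of all genes were called higher. The median log2 fold change was 1.61, 1.51 and 1.68, beside -0.01, 0.01 and 0.03 for all genes. Those with the smallest adjusted p at 72 h were Myd88, the adaptor of interleukin 1 and Toll-like receptors (1.56 ± 0.19), the interleukin 1 receptor gene Il1r1 (1.63 ± 0.22) and Tlr4 (1.74 ± 0.26). These 3 were called higher at 72 h, when each listed ELR ligand was below its 6 h range in every library.

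Of 18 genes for neutrophil adhesion and other attractant pathways, 17 were called at 6 h, 16 at 24 h and 15 at 72 h, all higher, against the same shares of all genes called higher (16.3%, 23.7% and 34.2%). Their median log2 fold change was 3.60, 4.07 and 3.52 at these times, with all genes at -0.01, 0.01 and 0.03. Itgam and Itgb2, the chains of the integrin Mac-1, rose by 4.71 ± 0.60 and 3.43 ± 0.45 at 24 h, and Ltb4r1, the leukotriene B4 receptor, by 5.93 ± 0.89. Replicate 3 was far above the other 24 h libraries for all 3: without it the 24 h mean went from 53.0 to 26.3 CPM for Itgam, from 61.3 to 37.2 CPM for Itgb2 and from 10.3 to 4.69 CPM for Ltb4r1.

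Of the 12 tested among 16 other CXC ligands and receptors, 6 were called higher at 6 h. At 24 h 4 were higher (Ppbp, Pf4, Cxcl10 and Cxcr6) and 2 lower (Cxcl9 and Cxcl14), and at 72 h 8 were higher and 1 lower (Ackr3). Over all genes 28.4%, 43.8% and 66.4% were called in either direction at these times. Taken in either direction, the 24 h and 72 h counts are near that background. The shares of all genes called higher were 16.3%, 23.7% and 34.2%. The list's median log2 fold change was 1.63, 1.36 and 3.03, beside -0.01, 0.01 and 0.03 for all genes. Pf4, the platelet factor 4 gene between Cxcl5 and Cxcl3, rose by 3.15 ± 0.27 at 72 h, from 15.3 ± 1.67 to 135 ± 5.41 CPM (SD, n = 3). Cxcl16, the ligand of CXCR6, rose by 3.01 ± 0.13, from 8.51 ± 0.467 to 68.5 ± 10.2 CPM, and Cxcr6 by 5.73 ± 0.57.

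Around CXCL12 and CXCR4, 10 genes of the axis were tested. At 6 h 2 were called higher (Hif1a and Gnai2) and 1 lower (Dpp4, which encodes a peptidase that cleaves CXCL12). At 24 h 6 were higher and 1 lower (Dpp4), and at 72 h 7 were higher and 1 lower (Ackr3). In either direction the 6 h count is near the 28.4% of all genes called, and the later counts stand beside 43.8% and 66.4%. The shares of all genes called higher were 16.3%, 23.7% and 34.2%. The median log2 fold change of the 10 was 0.24, 0.62 and 0.70 at the 3 times. Ackr3, the scavenging receptor for CXCL12, went from 74.6 ± 8.26 CPM in sham to 30.8 ± 2.98 CPM at 72 h (SD, n = 3; log2 -1.28 ± 0.20, edgeR adjusted p = 3.71e-05), the opposite direction to Cxcr4. Cd74, a receptor of MIF that pairs with CXCR4, rose by 1.46 ± 0.13, Arrb2, an arrestin, by 2.45 ± 0.22 and Pik3cg, a lipid kinase downstream of chemokine receptors, by 3.35 ± 0.33.

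The profiles of the 7 genes across the 18 libraries were compared with those of all tested genes by Pearson r of log2 CPM, as a description without a test, since libraries of a group share their treatment. Closest to Cxcl1 were Ppp1r15a (r = 0.947), Csrnp1 (0.943) and Gadd45g (0.940), and closest to Cxcl2 were Socs3 (0.954), Ptgs2 (0.941) and S100a9 (0.937). Cxcl3 was nearest to Slc2a1 (0.979), Stfa2l1 (0.977) and Hcar2 (0.974), and Cxcl5 to Sbno2 (0.987), Slc3a2 (0.986) and Plaur (0.981). Cxcr2 ran with Il1r2 (0.988) and Cd177 (0.981), of which Il1r2 is on the neutrophil marker list. Cxcr4 was nearest to Cln3 (0.979), Isg15 (0.978) and Lyn (0.975). Cxcl12 had no gene as close, with Nsun6 (0.827), Gpn1 (0.802) and Prmt5 (0.799) at the top.

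Among the 7 themselves the highest r was 0.96, between Cxcl3 and Cxcr2, followed by Cxcl3 with Cxcl5 at 0.94, Cxcl5 with Cxcr2 at 0.93 and Cxcl1 with Cxcl2 at 0.92. The lowest r among the 4 ELR ligands was 0.65, between Cxcl1 and Cxcl5. Cxcl12 had r between -0.24 and -0.04 with the other 6, and Cxcr4 reached at most 0.52, with Cxcl5. These values share the same 18 libraries and their group structure.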

How the data were processed

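RNA of 18 hearts was read from read counts and FPKM per Ensembl gene (fragments per kb and per M). The authors deposited both units, for the series and for each sample, and 0 values differed between these files. Per the submitters' processing notes, cutadapt 1.18, HISAT2 2.1.0, featureCounts and the mm10 build were used; the annotation and strand setting are not given in the sources used here. Gene lengths implied by the deposited FPKM matched GENCODE M21 exon lengths within 1 base for 91.9% of genes. At 6 h the FPKM of replicate 2 held the scaled counts of replicate 3 and the reverse, which leaves group comparisons as they are.

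Samples were grouped by the labels' time after ligation. Of the deposited counts, filterByExpr removed 14272 genes. edgeR 4.0.16 (R 4.3.3, TMM, robust quasi-likelihood, 1 mean per group over 18 libraries) gave two-sided p-values, adjusted by the Benjamini-Hochberg method over 16311 genes; the biological coefficient of variation was 0.149. The fit was tested on simulated data in which only genes above a minimum sham count were changed. That test does not cover Cxcl2, Cxcl3, Cxcl5 and Cxcr2, which had few or no counts in sham. An adjusted p is edgeR's unless another tool is named. SE is the log2 fold change divided by the square root of F. Libraries of a group differed beyond sampling noise (chi-square per degree of freedom 6.72 to 73.1). The labels do not pair mice. In the fit of 18 libraries the p-values rest on 1 estimate of the spread between mice per gene, shared by the 6 groups of 3 mice.

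The members and lists were chosen with earlier results of these data known. The text names the 7 members, the 3 genes of each list with the smallest adjusted p against sham at the time of its most extreme median, defining cell markers, and the 3 genes closest to each member by r (log2 CPM, prior count 2), of which 1 is not reported here; others are named where they make up a count of 5 or fewer or bear on CXCL12, after their values were seen. Alternatives were DESeq2 1.42.0, limma 3.58.1 on log2(FPKM + 1) and log2(FPKM + 0.1), other scalings and filters, a replicate block, fits of 6 libraries and each library left out. Promoter sequences are RefSeq's (GRCm38.p6). Protein sequences were not used here. Marker lists (neutrophil, monocyte and macrophage, lymphocyte, platelet, endothelial, fibroblast, pericyte and smooth muscle, cardiomyocyte) were read as summed CPM.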

Additional observations from a re-analysis of the deposited data

Results flagged for a closer look

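Some members differed from sham in opposite directions at 2 times, with at least 1 of them called, and the 2 times differed when compared directly in the edgeR fit of 18 libraries. Cxcl5 was at -0.79 on the log2 scale at 10 min, on 2 to 6 counts per library in these groups and with no call, against 8.40, 7.20 and 5.79 at 6 h, 24 h and 72 h. The direct differences from 10 min were 9.19 (adjusted p = 1.81e-05), 7.99 (adjusted p = 3.06e-05) and 6.58 (adjusted p = 4.21e-05).

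Cxcl12 was at 0.07 at 10 min and 0.19 at 24 h, neither called, and at -0.34 at 72 h. The 72 h value differed from that at 10 min by -0.41 (adjusted p = 0.00851) and from that at 24 h by -0.53 (adjusted p = 0.00184); the sign at 72 h against sham turned under library total scaling, to 0.25. Cxcr4 was at -0.18 at 1 h, not called, and at 1.38 and 2.51 at 24 h and 72 h, with direct differences from 1 h of 1.56 (adjusted p = 0.00168) and 2.69 (adjusted p = 4.24e-06).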

How the results depend on the processing

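Members called, out of 7, are given as the value of the edgeR fit and then its alternatives. Against sham at 10 min (0): 1 with only the 6 libraries compared. At 1 h (1): 0 with no filter and under the replicate block, 2 with 6 libraries and by DESeq2, 0 to 1 with a library left out. At 6 h (5): 1 with at least 10 counts in every library, 4 to 5 left out. At 24 h (6): 2 with that filter, 6 to 7 left out. At 72 h (4): 2 with that filter, 7 with 6 libraries and by DESeq2, 2 to 6 left out (2 without sham replicate 1). From 10 min to 1 h (0): 2 with 6 libraries and by DESeq2, 1 by limma with either pseudocount, 0 to 1 left out. From 1 h to 6 h (3): 1 with the filter, 5 by DESeq2, 2 to 5 left out. From 6 h to 24 h (3): 1 with no filter, 0 with 6 libraries, 0 to 3 left out. From 24 h to 72 h (7): 4 with library totals, under the replicate block and by limma with either pseudocount, 3 with the filter, 2 to 7 left out. For any group (7): 3 with the filter, which leaves only 3 members to test. The fits of 6 libraries tested 3 members at 10 min, 5 at 1 h and 4 from 10 min to 1 h, and all 7 in the other comparisons.

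Directions turned for Cxcl12 at 72 h against sham (0.25 with library totals, 0.23 and 0.24 by limma); for Cxcl2 from 6 h to 24 h (-0.14 under the replicate block, -0.33 and -0.54 by limma, -2.35 without 24 h replicate 3, -2.35 to 1.31 left out); for Cxcl3 over the same step (-1.14 without that library, -1.14 to 2.12 left out); for Cxcr2 over that step (-1.96 to 1.09 left out) and from 10 min to 1 h (-0.11 to 0.56); and for Cxcr4 at 6 h (-0.04 without replicate 1, -0.04 to 0.46 left out). The cause was not tested. Deviations from the group mean over 2000 genes were compared between libraries of different groups. The 45 pairs with the same replicate number had a median correlation of -0.01, with 5 over 0.1. The 90 pairs with different numbers had a median of 0, with 11 over 0.1. These values do not exclude a pairing of the mice.

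Counts of all genes called moved by over 1.5 times from 12 at 10 min (26 with no filter, 360 with 6 libraries, 60 by DESeq2, 4 and 3 by limma, 0 to 24 left out), 48 at 1 h (190 with 6 libraries, 95 by DESeq2, 31 without sham replicate 2), 4639 at 6 h (2926 without replicate 1), 50 from 10 min to 1 h (244, 128, and 6 to 87 left out), 4003 from 1 h to 6 h (2664 without 1 h replicate 2, 2481 without 6 h replicate 1) and 4541 from 6 h to 24 h (6880 with library totals, 1024 with 6 libraries). Of the genes called against sham, 41.7% were higher at 10 min (77.8% with library totals), 57.2% at 6 h (40.6%), 54% at 24 h (75.5%) and 51.4% at 72 h (79.9%). In the last 3 steps 59.2% (45.7%), 50.9% (88%) and 48.4% (81.5%) were higher. Depth limits Cxcl2, Cxcl3, Cxcl5 and Cxcr2 before 6 h, where most libraries held under 20 counts.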
